A study of Mus musculus with 12 samples.

Results

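Tissue inhibitors of metalloproteinases (TIMPs) and secreted ADAMTS proteases were followed through RNA-seq of mouse scars. The genes Timp1, Timp2, Timp3, Adamts1, Adamts2, Adamts4, Adamts5, Adamts9, Adamts12 and Adamts14 were taken by symbol from the count files, which gave 10 of the 35976 genes listed. All 10 were among the 18853 genes that passed the filter on low counts. Timp4 and the 12 other ADAMTS proteases in the files were used as reference lists.

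Dorsal scars of male mice aged 8 to 12 weeks were compared in 4 groups of 3 mice. All 12 mice received a 1.5-cm wound and carried a plastic device on it from day 6. In the traction groups the device was lengthened by 1 mm/day to 8 mm, while sham mice wore it without lengthening. Each treatment was given to Tem1WT/WT mice and to Tem1lacZ/lacZ mice, which lack Tem1 (gene symbol Cd248) in every cell type and not in the scar alone. Cd248 lay between 92.4 and 337 CPM (a count divided by the effective size of its library) in the 6 Tem1WT/WT libraries and at or below 0.248 CPM in the 6 Tem1lacZ/lacZ libraries, as labelled. The libraries held 41536788 to 64644293 counts. Counting error was small beside the spread between mice for the 10 genes, each with at least 202 counts in every library. All 7 fibroblast markers were detected in every library. The tissue was whole scar, in which a rise in the number of cells of a type and a rise in RNA per cell cannot be told apart.

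TIMPs are secreted proteins that bind the active site of matrix metalloproteinases and of some ADAM and ADAMTS enzymes. ADAMTS proteases are secreted zinc enzymes that cut extracellular matrix, and they fall into groups by substrate. ADAMTS1, ADAMTS4, ADAMTS5 and ADAMTS9 cut the large proteoglycans aggrecan and versican, ADAMTS2 and ADAMTS14 remove the amino-terminal propeptide of fibrillar procollagens, and ADAMTS12 can degrade cartilage oligomeric matrix protein. In skin, loss of ADAMTS2 leaves procollagen unprocessed and the dermis fragile.

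Of the 10 genes, Timp1, Adamts4 and Adamts9 rose with traction in Tem1WT/WT mice (edgeR's quasi-likelihood test, with p adjusted by Benjamini-Hochberg over all genes tested and a threshold of 0.05). The share of all genes called in this comparison was 9.15% in either direction and 5.61% as higher. None of the 10 was called with traction in Tem1lacZ/lacZ mice or between the genotypes. Almost no gene at all was called there: 0% of all genes with traction in Tem1lacZ/lacZ mice, 0.106% between the genotypes with traction and 0.0106% between the sham groups. Levels of all 10 in each mouse are given as CPM normalized by trimmed mean of M values (TMM).

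**Figure D1:**
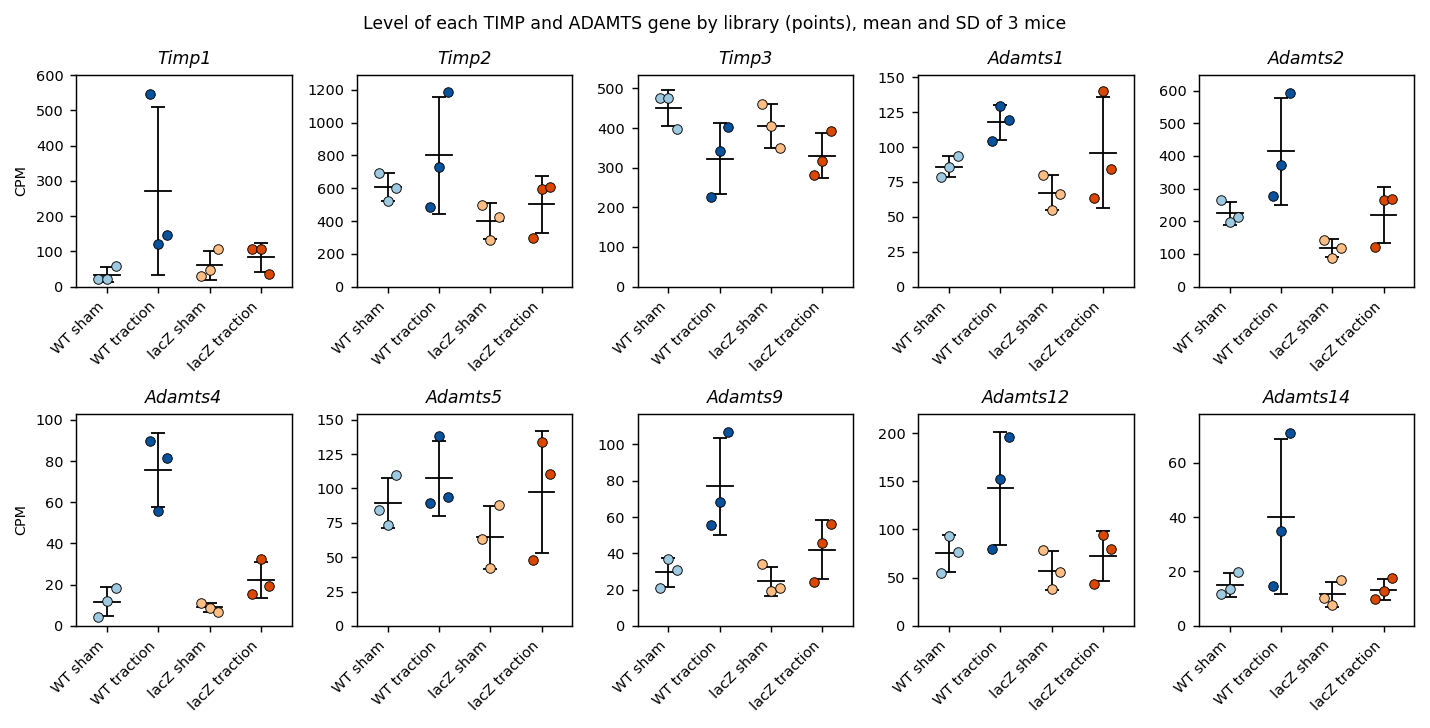
TMM-normalized CPM (y axis, linear, from 0) of the 10 genes in the 4 groups (x axis), with 1 point per mouse, and bars for the mean ± SD of 3 mice. Adamts4 stood at 55.6 to 90.0 CPM in the Tem1WT/WT traction group and at no more than 32.3 CPM in the other 9 libraries, whereas the high mean of Timp1 was carried by 1 mouse at 547 CPM.

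Promoter sequences are shown for 3 genes, 2 that rose with traction and 1 whose values ran the other way. RefSeq's promoter table of GRCm38.p6 held 8 of the 10 genes. The 250 bases before the start are given 5′ to 3′ on the strand of the gene for Timp1 (chrX:20869916-20870165, plus strand) and Adamts9 (chr6:92943535-92943784, minus strand), and for Timp3 (chr10:86300162-86300411, plus strand). The start that the table uses for Adamts9 lies inside the annotated span of the gene. Capitals mark matches to the motifs that were searched.
Timp1: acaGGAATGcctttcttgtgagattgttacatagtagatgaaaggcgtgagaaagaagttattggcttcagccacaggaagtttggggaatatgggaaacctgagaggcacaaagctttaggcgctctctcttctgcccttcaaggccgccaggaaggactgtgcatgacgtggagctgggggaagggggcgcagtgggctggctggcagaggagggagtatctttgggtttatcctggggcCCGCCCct
Adamts9: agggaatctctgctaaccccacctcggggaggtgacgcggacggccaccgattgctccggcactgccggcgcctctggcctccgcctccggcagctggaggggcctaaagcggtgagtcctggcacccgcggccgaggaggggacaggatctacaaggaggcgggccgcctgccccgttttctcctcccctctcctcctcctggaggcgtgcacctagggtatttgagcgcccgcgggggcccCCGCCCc
Timp3: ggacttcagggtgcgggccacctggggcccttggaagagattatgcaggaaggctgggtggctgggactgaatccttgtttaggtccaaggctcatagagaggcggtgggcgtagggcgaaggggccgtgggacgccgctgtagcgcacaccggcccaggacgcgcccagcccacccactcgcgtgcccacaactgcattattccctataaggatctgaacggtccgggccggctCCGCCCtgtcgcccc

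Matches were sought on both strands, with overlaps allowed. The GC box (GGGCGG), which binds Sp1-type factors, was found in 7 of the 8 promoters, all but that of Adamts12, and in 32.7% of the 32851 promoters of the table. Timp1, Adamts9 and Timp3 each had 1 GC box, on the strand opposite to the gene and 8, 7 and 15 bases before the start. The TEAD motif (GGAATG) was found once, 247 bases before the start of Timp1, and in 12.6% of all promoters. The TATA box (TATAAA) was found once, 32 bases before the start of Adamts1, and in 12.4% of all promoters. The AP-1 motif (TGANTCA), the RUNX motif (TGTGGT) and the SMAD box (CAGACA) were found in 0 of the 8, and in 6.75%, 14% and 17.1% of all promoters.

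Among the inhibitors, Timp1 (chromosome X, 20870166 to 20874737, plus strand of GRCm38), a soluble TIMP that binds MMP9 tightly, was called with traction in Tem1WT/WT mice. In the sham group of Tem1WT/WT mice it stood at 22.8, 20.7 and 57.9 CPM in replicates 1, 2 and 3. With traction it stood at 547, 121 and 148 CPM. The groups did not overlap, and replicate 1 with traction was far above the other two. The log2 fold change was 3.01 (SE 0.75, 95% interval 1.36 to 4.65, edgeR adjusted p = 0.0384), which is 8.04-fold. Without that replicate the fold change was 3.92 and the call was lost (edgeR adjusted p = 0.0844). Without replicate 3 of the sham group, its highest sham level, the fold change was 12.6. The call was also lost without replicate 1 or 2 of the Tem1WT/WT sham group, replicate 2 or 3 of the Tem1lacZ/lacZ sham group or replicate 2 of the Tem1lacZ/lacZ traction group, with folds of 6.82 to 8.10 and edgeR adjusted p of 0.0517 to 0.140. limma-voom gave 5.27-fold and did not call it (limma-voom adjusted p = 0.0877), nor did edgeR with all genes of at least 1 count (8.01-fold, edgeR adjusted p = 0.0750), with only the 6 libraries compared (8.02-fold, edgeR adjusted p = 0.0892) or with a replicate block (7.85-fold, edgeR adjusted p = 0.0568).

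Timp1 in Tem1lacZ/lacZ mice stood at 29.2, 46.3 and 107 CPM in the sham group and at 105, 107 and 35.5 CPM with traction. These groups overlapped, and the log2 fold change of 0.44 had an interval of -1.09 to 1.97 and was 1.15 without replicate 3 of the sham group. Between the genotypes with traction it was lower in all 3 Tem1lacZ/lacZ mice than in any Tem1WT/WT mouse, by a log2 fold change of -1.72 (SE 0.71, edgeR adjusted p = 0.161), which was -0.67 without replicate 1 of the Tem1WT/WT traction group. In the sham groups it was the only one of the 10 genes whose level was on average higher in Tem1lacZ/lacZ mice (0.85, edgeR adjusted p = 0.632), with overlap between the groups. This value was 0.14 without replicate 3 of the Tem1lacZ/lacZ sham group and 1.49 without replicate 3 of the Tem1WT/WT sham group. The interaction of genotype and traction was -2.57 (SE 0.99), the only one of the 10 with an unadjusted p under 0.05 (0.0258), and did not pass the adjustment (edgeR adjusted p = 0.548). It was -1.50 without replicate 1 of the Tem1WT/WT traction group and -3.21 without replicate 3 of the Tem1WT/WT sham group.

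Neutrophil markers were highest in the library with the highest Timp1. The 8 neutrophil markers summed to 6801 CPM in replicate 1 of the Tem1WT/WT traction group, against 609 and 287 CPM in replicates 2 and 3. They summed to 62.1 to 97.6 CPM in the Tem1WT/WT sham group, 172 to 191 CPM in the Tem1lacZ/lacZ sham group and 247 to 530 CPM in the Tem1lacZ/lacZ traction group. Ly6g was at 0 counts in all 3 Tem1WT/WT sham libraries and in replicates 1 and 2 of both Tem1lacZ/lacZ groups, and Ngp in replicates 1 and 2 of the Tem1lacZ/lacZ sham group. In the Tem1lacZ/lacZ sham group the neutrophil sums were 187, 172 and 191 CPM where Timp1 stood at 29.2, 46.3 and 107 CPM. Replicate 1 of the Tem1WT/WT traction group also had its group's highest macrophage (5224 CPM), T cell (94.7 CPM), adipocyte (1083 CPM) and skeletal muscle (1352.5 CPM) marker sums. It had the lowest fibroblast, pericyte and endothelial sums of that group. The part of any of these markers in the Timp1 level was not tested. The same replicate had the lowest Timp2, Timp3, Adamts1, Adamts2, Adamts5, Adamts9, Adamts12 and Adamts14 of its group, and the highest Timp1 and Adamts4.

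**Figure D2:**
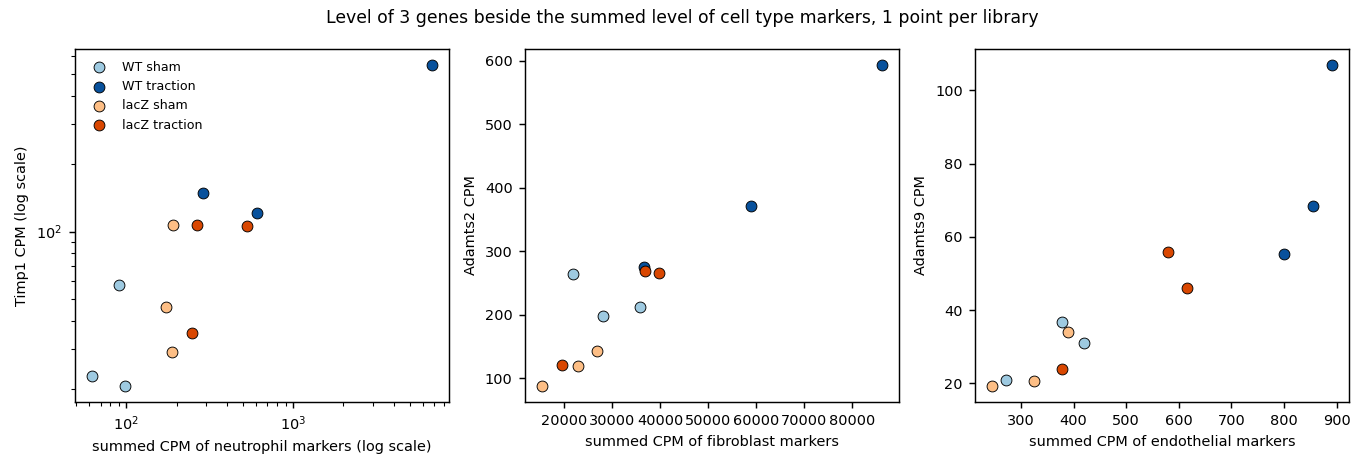
CPM of Timp1, Adamts2 and Adamts9 (y axes) against the summed CPM of 8 neutrophil, 7 fibroblast and 7 endothelial markers (x axes), 1 point per library and colour by group, with log axes for Timp1 only. The library at 547 CPM of Timp1 stood alone at 6801 CPM of neutrophil markers, and the 3 Tem1WT/WT traction libraries had the highest endothelial sums, from 801 to 892 CPM.

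Timp2 (chromosome 11, 118301061 to 118355411, minus strand), which binds MMP14 and takes part in the activation of MMP2, was not called by edgeR, DESeq2 or limma-voom in any comparison. It stood at 692, 521 and 601 CPM in the sham group and at 486, 727 and 1187 CPM in the traction group of Tem1WT/WT mice, which overlapped (log2 fold change 0.40, edgeR adjusted p = 0.470). It stood in Tem1lacZ/lacZ mice at 498, 282 and 426 CPM in the sham group and at 298, 596 and 608 CPM with traction. The sham groups of the genotypes did not overlap, with a difference of -0.59 in log2 (SE 0.36, edgeR adjusted p = 0.522).

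Timp3 (chromosome 10, 86300412 to 86349505, plus strand), which is held in the matrix and inhibits ADAMTS4 and ADAMTS5 as well as metalloproteinases, was the only one of the 10 with a fold change below 0 with traction, in either genotype. In Tem1WT/WT mice it stood at 476, 477 and 397 CPM in the sham group and at 225, 342 and 402 CPM with traction. The groups overlapped by 1 mouse, and the log2 fold change was -0.48 (SE 0.22, interval -0.97 to 0.02, edgeR adjusted p = 0.170). The value stayed below 0 under all 21 alternatives, from -0.66 to -0.29. Timp3 in Tem1lacZ/lacZ mice stood at 462, 406 and 349 CPM in the sham group and at 282, 316 and 394 CPM with traction (log2 fold change -0.29, edgeR adjusted p = 0.719). The genotypes with traction differed by 0.03 (interval -0.46 to 0.53), the smallest genotype difference with traction of the 10 genes. Timp3 shares 1733 exon bases with Syn3 on the other strand in the annotation, but Syn3 held only 1704 counts over all libraries, against 226257 for Timp3.

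Scaled to exon length, the TIMPs could be set beside each other. In CPM per kb of exon, Timp1 made up 14.96 ± 8.1% (SD, n = 3) of the summed level of Timp1 to Timp4 in the Tem1WT/WT sham group and 49.8 ± 26.4% (SD, n = 3) with traction, where its share was 80.2% in replicate 1 and at least 31.9% in the others. In Tem1lacZ/lacZ mice the Timp1 share was 29.7 ± 14.5% in the sham group and 35.5 ± 17.8% with traction (SD, n = 3). In the sham and traction groups of Tem1WT/WT mice the Timp2 share was 62.4 ± 5.1% and 42.0 ± 22.6%, and the Timp3 share was 22.5 ± 4.5% and 8.20 ± 4.1% (SD, n = 3). Timp4 never exceeded 0.243%. These shares were described and not tested. With the length of the longest transcript in place of all exons, a choice made after seeing the data, the mean Timp1 share was 12.7% in the Tem1WT/WT sham group and 46.9% with traction, and that of Timp3 was 32.4% and 12.9%.

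**Figure D3:**
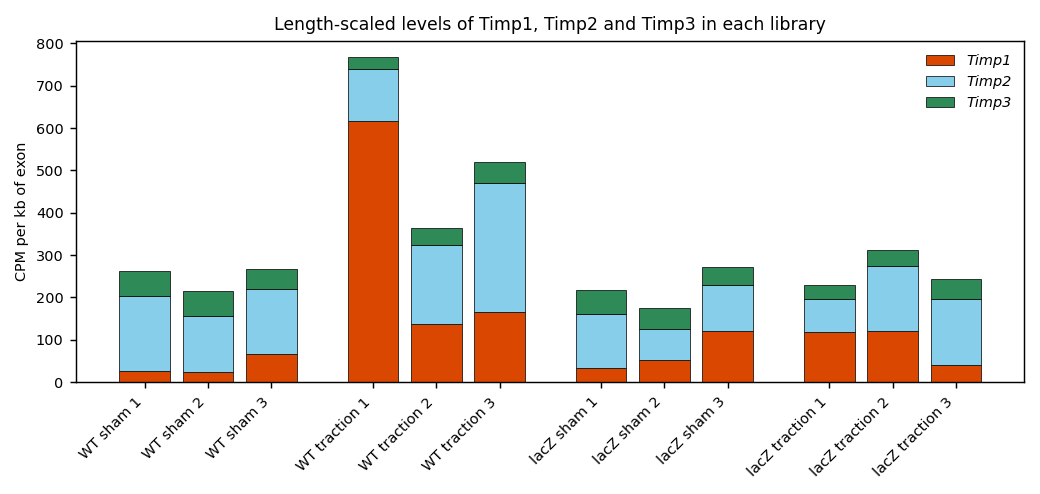
CPM per kb of exon of Timp1, Timp2 and Timp3, stacked for each of the 12 libraries (x axis). Timp1 took 616 CPM per kb in replicate 1 of the Tem1WT/WT traction group and no more than 166 CPM per kb in any other library.

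Among the proteoglycan-cutting proteases, Adamts4 (chromosome 1, 171250129 to 171262267, plus strand), an aggrecanase, had the smallest adjusted p of the 10 genes with traction. In Tem1WT/WT mice it stood at 4.38, 12.2 and 18.3 CPM in the sham group and at 90.0, 55.6 and 81.5 CPM with traction. The groups did not overlap, and the log2 fold change was 2.70 (SE 0.47, interval 1.66 to 3.73, edgeR adjusted p = 0.0252), which is 6.48-fold. The call held in 18 of 21 alternatives and was lost without replicate 1 of the Tem1WT/WT sham group (4.94-fold, edgeR adjusted p = 0.109), without replicate 2 of that group (6.71-fold, edgeR adjusted p = 0.0869) and with only the 6 libraries compared (6.46-fold, edgeR adjusted p = 0.0761).

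Adamts4 in Tem1lacZ/lacZ mice stood at 11.3, 8.83 and 6.90 CPM in the sham group and at 15.5, 32.3 and 19.3 CPM with traction. It was the only one of the 10 genes whose groups did not overlap there, beside 12.9% of all genes. The log2 fold change of 1.31 (SE 0.45) had an unadjusted p of 0.0147 and did not pass the adjustment (edgeR adjusted p = 0.598). With traction, all 3 Tem1lacZ/lacZ mice were below all 3 Tem1WT/WT mice (-1.76, SE 0.45, edgeR adjusted p = 0.0951). The interaction was -1.39 (interval -2.78 to 0.0022, edgeR adjusted p = 0.555).

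Adamts9 (chromosome 6, 92772699 to 92944450, minus strand), which cuts versican, stood at 20.8, 36.8 and 30.9 CPM in the Tem1WT/WT sham group and at 55.4, 68.3 and 107 CPM with traction. The groups did not overlap, and it rose by 1.38 in log2 (SE 0.37, edgeR adjusted p = 0.0431), which is 2.61-fold. The call held in 8 of 21 alternatives, with log2 fold changes of 1.28 to 1.47, and over all 21 the value lay between 1.07 and 1.59. It was lost without any of the 3 Tem1WT/WT sham libraries, without replicate 1 or 3 of the Tem1WT/WT traction group, and without replicate 2 or 3 of either Tem1lacZ/lacZ group, with edgeR adjusted p between 0.0520 and 0.152. In Tem1lacZ/lacZ mice it stood at 33.9, 19.4 and 20.6 CPM in the sham group and at 24.0, 46.0 and 55.9 CPM with traction, with overlap (0.77, SE 0.36, edgeR adjusted p = 0.622). The 7 endothelial markers summed to 801 to 892 CPM in the Tem1WT/WT traction group, 272 to 420 CPM in its sham group, 246 to 389 CPM in the Tem1lacZ/lacZ sham group and 377 to 615 CPM in the Tem1lacZ/lacZ traction group, with none of the 7 at 0 in any library. Their part in the Adamts9 level was not tested.

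Adamts1 (chromosome 16, 85793827 to 85803113, minus strand), which cuts versican and aggrecan, and its neighbour Adamts5 (chromosome 16, 85858157 to 85901125, minus strand), the main aggrecanase of mouse cartilage, were not called by edgeR in any comparison. limma-voom called Adamts1 with traction averaged over both genotypes (0.53, limma-voom adjusted p = 0.0397), as did edgeR without replicate 1 of the Tem1lacZ/lacZ traction group (0.62, edgeR adjusted p = 0.0235). Adamts1 stood at 78.3, 86.0 and 93.3 CPM in the Tem1WT/WT sham group and at 105, 130 and 119 CPM with traction. These groups did not overlap, yet the log2 fold change of 0.46 (SE 0.25, interval -0.10 to 1.02) was not called (edgeR adjusted p = 0.241). Without Tem1 it stood at 80.3, 55.1 and 66.1 CPM in the sham group and at 63.2, 140 and 84.4 CPM with traction, which overlapped (0.52, edgeR adjusted p = 0.622).

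Adamts5 ranged from 73.7 to 110 CPM in the Tem1WT/WT sham group, 89.6 to 138 CPM with traction, 42.0 to 87.8 CPM in the Tem1lacZ/lacZ sham group and 48.3 to 134 CPM with traction. The 2 ranges of each genotype overlapped, while the Tem1WT/WT traction range lay above the Tem1lacZ/lacZ sham range. Its log2 fold change with traction was 0.26 (interval -0.54 to 1.07) in Tem1WT/WT mice and 0.60 (interval -0.21 to 1.41) in Tem1lacZ/lacZ mice. Whether Adamts4 and Adamts5 differed in response was not tested. Per kb of exon, the mean level of Adamts5 was above that of Adamts4 in the Tem1WT/WT sham group (8.27 ± 1.71 against 2.42 ± 1.45 CPM per kb, SD, n = 3) and below it with traction (9.94 ± 2.51 against 15.7 ± 3.7 CPM per kb, SD, n = 3).

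Among the procollagen N-proteinases, Adamts2 (chromosome 11, 50602085 to 50807573, plus strand) separated the genotypes in both treatments. In the sham groups it stood at 264, 198 and 212 CPM in Tem1WT/WT mice and at 143, 88.5 and 119 CPM in Tem1lacZ/lacZ mice. With traction it stood at 276, 371 and 593 CPM in Tem1WT/WT mice and at 120, 266 and 269 CPM in Tem1lacZ/lacZ mice. The Tem1lacZ/lacZ mice were below every Tem1WT/WT mouse of the same treatment. The genotypes did not overlap for 26.8% of all genes in the sham groups and for 26.6% with traction. The log2 difference was -0.94 (SE 0.35, unadjusted p = 0.0195, edgeR adjusted p = 0.409) in the sham groups and -0.92 (SE 0.35, unadjusted p = 0.0218, edgeR adjusted p = 0.136) with traction, so neither was called. Traction gave 0.88 (SE 0.35, edgeR adjusted p = 0.110) in Tem1WT/WT mice and 0.90 (SE 0.35, edgeR adjusted p = 0.598) in Tem1lacZ/lacZ mice, and the interaction was 0.02 (interval -1.04 to 1.09).

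The sum of the 7 fibroblast markers, which is led by collagen genes, was 36653 to 86227 CPM in the Tem1WT/WT traction group, 21841 to 35876 CPM in its sham group, 15408 to 26791 CPM in the Tem1lacZ/lacZ sham group and 19527 to 39708 CPM in the Tem1lacZ/lacZ traction group. Col3a1 alone averaged 40700 ± 16242 CPM in the first of these groups (SD, n = 3). With traction, edgeR called 2 of the 7 in Tem1WT/WT mice (9.15% of all genes) and 0 in Tem1lacZ/lacZ mice (0% of all genes). The median log2 fold change of the 7 was 0.90 and 0.60. The 7 did not all rise, since Dcn had log2 fold changes of -0.09 and -0.31. The part of these markers in the Adamts2 level was not tested. Col1a1, a substrate of ADAMTS2, had a mean of 4493 ± 955 CPM in the Tem1WT/WT sham group, 14420 ± 8095 CPM in its traction group, 2263 ± 758 CPM in the Tem1lacZ/lacZ sham group and 6097 ± 3025 CPM in the Tem1lacZ/lacZ traction group (SD, n = 3).

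Adamts14 (chromosome 10, 61197112 to 61273419, minus strand), a close relative of Adamts2, stood at 11.6, 13.6 and 19.9 CPM in the Tem1WT/WT sham group and at 14.7, 34.7 and 71.1 CPM with traction. Replicate 1 with traction lay within the sham range and the other two above it. The log2 fold change of 1.42 (SE 0.50, edgeR adjusted p = 0.0855) was not called by edgeR, while DESeq2's Wald test called it (1.43, DESeq2 adjusted p = 0.0261). Without replicate 3 with traction it was 0.72. Adamts14 in Tem1lacZ/lacZ mice stood at 10.3, 7.66 and 16.8 CPM in the sham group and at 9.73, 12.7 and 17.6 CPM with traction (0.20, edgeR adjusted p = 0.925). The difference between the genotypes with traction was -1.59 (SE 0.50, edgeR adjusted p = 0.105), with overlap between the groups, and -0.87 without replicate 3 of the Tem1WT/WT traction group.

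Adamts12 (chromosome 15, 11064773 to 11349232, plus strand) stood at 55.4, 93.5 and 76.6 CPM in the Tem1WT/WT sham group and at 80.0, 152 and 196 CPM with traction. The groups overlapped by replicate 1 with traction (0.93, SE 0.39, edgeR adjusted p = 0.132). In Tem1lacZ/lacZ mice it stood at 78.4, 38.1 and 55.8 CPM in the sham group and at 43.4, 94.7 and 79.4 CPM with traction (0.34, edgeR adjusted p = 0.822). With traction the genotypes differed by -0.98 (SE 0.39, edgeR adjusted p = 0.150), again with overlap.

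**Figure D4:**
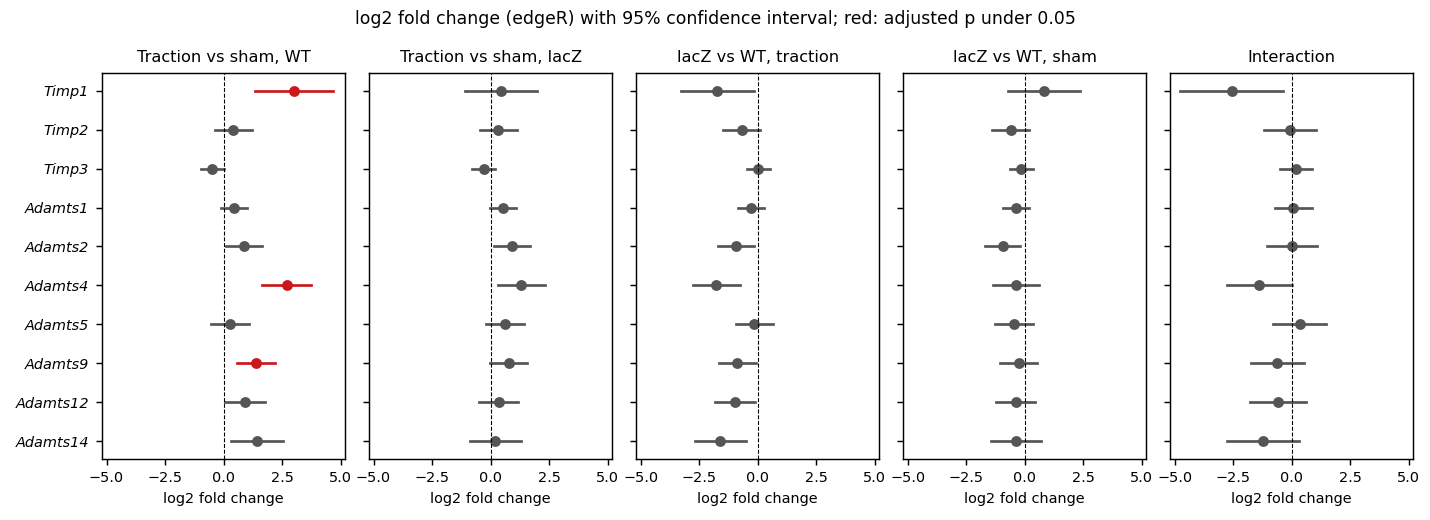
log2 fold changes (x axis) with 95% confidence intervals from edgeR for the 10 genes (y axis) in 5 comparisons, red where the adjusted p was under 0.05. Only Timp1, Adamts4 and Adamts9 are red, all with traction in Tem1WT/WT mice. For Tem1lacZ/lacZ against Tem1WT/WT mice, 9 of the 10 values lie below 0 with traction and likewise 9 in the sham groups. Of all genes, 51% and 48.6% lie above 0 in these 2 comparisons.

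Traction against sham in Tem1WT/WT mice asked which genes respond to stretch in a normal scar. In log2, the median fold change of the 10 was 0.90, with 9 values above 0, where all genes tested had a median of -0.01 and 49.4% above 0. The groups did not overlap for 5 of the 10, Timp1, Adamts1, Adamts2, Adamts4 and Adamts9, each higher with traction, and for 35.7% of all genes. The count of 3 called genes was 0 without replicate 1 or 2 of the Tem1WT/WT sham group, where 0 of all genes were called, and 1 without replicate 2 or 3 of the Tem1lacZ/lacZ sham group, replicate 1 of the Tem1WT/WT traction group or replicate 2 of the Tem1lacZ/lacZ traction group. The fits that gave 1 called 0.873% to 5.45% of all genes. The count was 2 without replicate 3 of the Tem1WT/WT sham group, replicate 3 of the Tem1WT/WT traction group or replicate 3 of the Tem1lacZ/lacZ traction group. Those fits called 3.62% to 4.97% of all genes.

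Traction against sham in Tem1lacZ/lacZ mice asked the same where Tem1 is missing, and used other libraries. edgeR called 0 of the 10, as it called 0% of all genes. At an unadjusted p under 0.05 there were 2 of the 10, Adamts2 and Adamts4, against 8.12% of all genes. DESeq2's Wald test called 0 of the 10 and 0.128% of all genes, and limma-voom called Adamts2 (1.08, limma-voom adjusted p = 0.0450) and 2% of all genes. Groups without overlap were seen for 1 of the 10 and for 12.9% of all genes. The median over the 10 was 0.48, with 9 values above 0, where all genes had a median of -0.01 and 48.5% above 0.

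Tem1lacZ/lacZ against Tem1WT/WT mice with traction asked what Tem1 changes in the stretched scar, and shares its libraries with both traction comparisons. edgeR called 0 of the 10 and 0.106% of all genes. At an unadjusted p under 0.05 there were 6 of the 10, Timp1, Adamts2, Adamts4, Adamts9, Adamts12 and Adamts14, all lower in Tem1lacZ/lacZ mice, against 26.1% of all genes in either direction. DESeq2's Wald test called Adamts4 (-1.78, DESeq2 adjusted p = 0.00545) and Adamts14 (-1.60, DESeq2 adjusted p = 0.0210) and 12.8% of all genes with an adjusted p, whereas limma-voom called 0 of the 10 and 0.0849% of all genes. In edgeR, Adamts4 passed once replicate 2 of the Tem1WT/WT traction group was left out (-1.94, edgeR adjusted p = 0.0444), a fit in which 7.32% of all genes were called. The groups did not overlap for 3 of the 10, Timp1, Adamts2 and Adamts4, and for 26.6% of all genes. The median of the 10 was -0.90, with 9 values below 0, where all genes had a median of 0.01 and 51% above 0.

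The sham groups of the genotypes were compared to see differences in scars that were not stretched. edgeR called 0 of the 10 and 0.0106% of all genes, DESeq2's Wald test 0 and 0.156%, and limma-voom 0 and 0.0053%. At an unadjusted p under 0.05 there was 1 of the 10, Adamts2, against 11.7% of all genes. Groups without overlap were found for 2 of the 10, Timp2 and Adamts2, both lower in Tem1lacZ/lacZ mice, and for 26.8% of all genes, so the share of the 10 was below that of all genes. The median of the 10 was -0.37, with 9 values below 0 as with traction, where all genes had a median of -0.01 and 48.6% above 0.

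The interaction asked whether traction acted differently in the genotypes. edgeR called 0 of the 10 and 0% of all genes, DESeq2's Wald test 0 and 0.368%, and limma-voom 0 and 0%. At an unadjusted p under 0.05 there was 1 of the 10, Timp1, against 8.91% of all genes. The calls of Timp1, Adamts4 and Adamts9 in Tem1WT/WT mice alone are therefore not shown to differ from the response in Tem1lacZ/lacZ mice. For Adamts9 the interaction was -0.61 (interval -1.73 to 0.51), and for Adamts14 it was -1.22 (interval -2.75 to 0.32), or -0.48 without replicate 3 of the Tem1WT/WT traction group.

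Averaged over both genotypes, traction raised Adamts2 by 0.89 (SE 0.24, edgeR adjusted p = 0.0458), Adamts4 by 2.00 (SE 0.33, edgeR adjusted p = 0.0203) and Adamts9 by 1.08 (SE 0.26, edgeR adjusted p = 0.0341) in log2. The share of all genes called was 9.73%, and 6.5% as higher. Timp1 had a log2 fold change of 1.72, above those of Adamts2 and Adamts9 and below that of Adamts4, but missed the threshold (SE 0.50, edgeR adjusted p = 0.0539). This average draws on the same libraries as the comparisons within each genotype. Adamts4 was lost without replicate 2 of either Tem1lacZ/lacZ group (log2 fold changes of 2.00 and 1.82, edgeR adjusted p = 0.0670 and 0.0576). Adamts9 was lost without any of the 3 Tem1WT/WT sham libraries, replicate 2 or 3 of either Tem1lacZ/lacZ group or replicate 3 of the Tem1WT/WT traction group, and Adamts2 without these and without replicate 1 of the Tem1lacZ/lacZ sham group. In these fits the log2 fold change was 0.94 to 1.18 for Adamts9 and 0.74 to 0.99 for Adamts2.

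The other genes of the network were taken from 4 lists, chosen with earlier results of these data known. With traction in Tem1WT/WT mice, 5.61% of all genes were called as higher and 9.15% in either direction. The median of all genes there was -0.01. Of the 12 other ADAMTS proteases, 2 rose and 1 fell with traction in Tem1WT/WT mice. Adamts7, which can degrade cartilage oligomeric matrix protein as Adamts12 does, stood at 4.56, 9.94 and 10.8 CPM in the sham group and at 75.9, 30.3 and 48.4 CPM with traction (2.61, edgeR adjusted p = 0.0271). Adamts15, which cuts versican, rose by 1.26 (edgeR adjusted p = 0.0454), and Adamts20, which is needed for pigment cells to spread through developing skin, fell by 1.74 (edgeR adjusted p = 0.0383). The median of the 12 was 0.39. None of the 9 ADAMTS-like proteins and other inhibitors, Timp4 and Reck among them, passed, with a median of -0.08.

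Of the metalloproteinases that TIMPs can inhibit, 19 of 21 were tested, and 8 rose and 0 fell in Tem1WT/WT mice, with a median of 1.15. Of all genes, 5.61% were called as higher there, and the median was -0.01. Mmp14, the membrane-bound partner of TIMP2, stood at 391, 462 and 543 CPM in the sham group and at 1072, 965 and 1463 CPM with traction (1.33, edgeR adjusted p = 0.0278). Mmp9, a gelatinase held by TIMP1, stood at 22.0, 12.01 and 24.1 CPM and at 757, 141 and 150 CPM (4.17, edgeR adjusted p = 0.0252). The collagenase gene Mmp13 stood at 14.5, 11.2 and 35.2 CPM in the sham group and at 1929, 154 and 138 CPM with traction (5.19, edgeR adjusted p = 0.0300). Mmp9 and Mmp13, like Timp1, were highest by far in replicate 1 with traction. Mmp10 (7.10, edgeR adjusted p = 0.0348), whose traction levels ran from 1.90 to 341 CPM, and Adam19 (1.46, edgeR adjusted p = 0.0311) also rose.

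Of the ADAMTS substrates and their clearance receptor, 14 of 16 were tested, and 4 rose and 0 fell in Tem1WT/WT mice, with a median of 1.29. The share of all genes called as higher was again 5.61%, with a median of -0.01. Bgn, the small proteoglycan biglycan, stood at 836, 1029 and 1186 CPM in the sham group and at 2439, 2470 and 3407 CPM with traction (1.45, edgeR adjusted p = 0.0252). Thbs1, encoding thrombospondin-1, rose by 2.93 (edgeR adjusted p = 0.0252), and Lrp1, the endocytic receptor that clears ADAMTS4 and ADAMTS5, rose by 1.45 (edgeR adjusted p = 0.0468). Bcan, a proteoglycan of the nervous system, rose by 3.05 (edgeR adjusted p = 0.0432) but stayed at or below 2.62 CPM, with 0.0651 CPM in replicate 1 of the sham group. In Tem1lacZ/lacZ mice, between the genotypes and in the interaction, edgeR called 0 genes of any of the 4 lists. It called at most 0.106% of all genes in these comparisons.

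**Figure D5:**
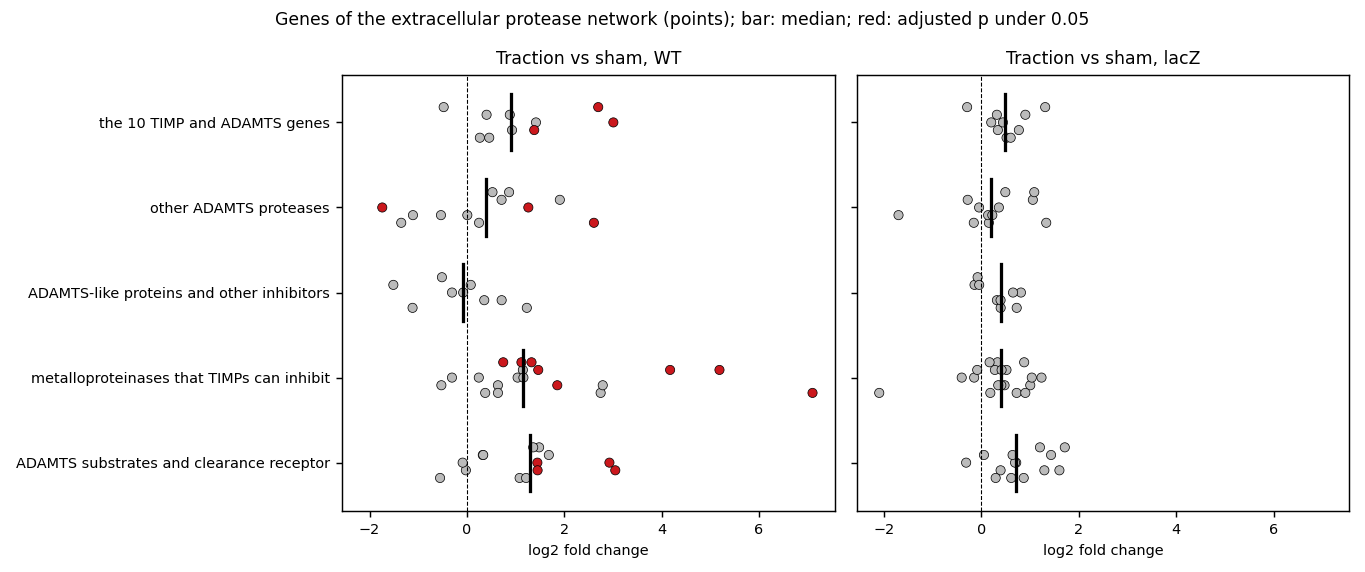
log2 fold changes with traction (x axis, shared by both panels) of the 10 genes and of 4 lists of the protease network (rows) in Tem1WT/WT and Tem1lacZ/lacZ mice, with 1 point per gene, a bar at the median and red for adjusted p under 0.05. The metalloproteinase list has a median of 1.15 in Tem1WT/WT mice and 0.41 in Tem1lacZ/lacZ mice, and no gene is red in the latter. The median of all genes tested was -0.01 in each genotype.

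Across the 12 libraries the 10 genes did not all vary together. Pearson correlations of log2 CPM, given as a description over libraries that share the 4 groups, ran from -0.89 between Timp1 and Timp3 to 0.93 between Timp2 and Adamts2. Among Timp2 and the ADAMTS genes of the 10, every pair correlated positively, the lowest at 0.46 between Timp2 and Adamts4. Adamts9 went with Adamts12 (0.91) and Adamts4 with Adamts9 (0.88), whereas Timp1 and Timp2 were nearly unrelated (0.06).

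The genes most like each member were found by the same measure over all genes tested. Timp1 was nearest to Pdpn (0.96), which encodes podoplanin, then to Unc93a (0.95) and Tmem173 (0.94). Timp2 was nearest to Atf7 (0.99), Sh3d19 (0.98) and Mib2 (0.98), and Timp3 to Abca4 (0.93), Trappc8 (0.90) and Blnk (0.90). Adamts4 was nearest to Ier5l (0.99) and to the collagen genes Col24a1 (0.98) and Col12a1 (0.98). Col12a1 averaged 442 ± 231 and 3313 ± 692 CPM in the sham and traction groups of Tem1WT/WT mice and 471 ± 159 and 1192 ± 486 CPM in those of Tem1lacZ/lacZ mice (SD, n = 3). Adamts9 was nearest to Robo4 (0.98), an endothelial receptor, to the basement membrane gene Nid2 (0.97) and to Arhgef40 (0.97). Adamts2 was nearest to Wdr7, Tbc1d9b and Aebp1 (0.98 each), Adamts12 to Col3a1 (0.97), Clcn5 (0.96) and Ccdc8 (0.95), and Adamts14 to Mras (0.98), Asb1 (0.97) and Oaf (0.97). Among the genes most like Adamts1 were Med13l (0.94) and Amotl2 (0.94), and Adamts5 was nearest to Rgag4 (0.95), the macrophage gene Adgre1 (0.94) and Rbms3 (0.93).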

How the data were processed

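RNA was extracted from scars and the authors prepared stranded poly(A) libraries, sequenced as paired-end reads. The submitters' processing notes name fastp 0.20.0, HISAT2 2.1.0, featureCounts 2.0.0 and GRCm38. The deposited values are whole-number counts per gene and library, without normalization. The annotation and strand setting of the counting are not given in the sources used here, so that reads of a gene and an antisense neighbour cannot be told apart.

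Counts were analysed in R 4.3.3 with edgeR 4.0.16: filterByExpr by group, TMM, and 1 robust quasi-likelihood model of the 4 groups and 12 libraries with no block. Tests were two-sided, with Benjamini-Hochberg adjustment over 18853 genes. p-values rest on a spread between mice that was estimated over all 4 groups of 3 mice and partly shared across genes. They do not measure the spread of the compared groups alone. log2 CPM used a prior count of 2. DESeq2 1.42.0 and limma 3.58.1 (voom) were alternatives, as were other filters and normalizations, a fit that was not robust, a replicate block, only the 6 libraries compared, and leaving out each library. Coordinates came from RefSeq and exon lengths from GENCODE vM21, both of GRCm38. Motifs were searched in RefSeq promoters. Figures were drawn in Python with matplotlib. Scripts were first tested on simulated data. Libraries of a group were checked for copies and none was found.

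The 10 genes, the lists and the tests were chosen with earlier results of these data known. All 10 genes are named. List genes are named where called, at most the 5 with the smallest p per list, and described for traction in Tem1WT/WT mice. The 3 genes of highest correlation are named for each of the 10, except that 1 of those of Adamts1 is not reported here. Markers shown beside Timp1, Adamts2 and Adamts9 were chosen after the values were seen.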

Additional observations from a re-analysis of the deposited data

How the results depend on the processing

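In Tem1WT/WT mice the count of 3 of the 10 genes called with traction was 1 with all genes of at least 1 count in any library and 0 with only the 6 libraries compared, and lay between 0 and 3 when a library was left out. Of all genes, 9.15% were called in the main fit, 3.54% with at least 1 count, 0% with the 6 libraries and 0% to 14.7% when a library was left out. Timp1 passed in 11 of 21 alternatives, Adamts4 in 18 and Adamts9 in 8. With traction in Tem1lacZ/lacZ mice the count rose from 0 to 1 with limma-voom, which called 2% of all genes against 0% in the main fit. Between the genotypes with traction the count rose from 0 to 2 with DESeq2's Wald test, which called 12.8% of all genes with an adjusted p. It lay between 0 and 1 without a library, where 0.0155% to 7.32% of all genes were called. Averaged over both genotypes the count rose from 3 to 5 with limma-voom, which called 20.4% of all genes against 9.73% in the main fit. It lay between 0 and 4 without a library, where 0% to 17.6% of all genes were called. The cause was not tested. The other counts for the 10 genes stayed within 1.5 times the main count.

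The log2 fold change of Timp1 with traction in Tem1lacZ/lacZ mice turned to -0.25 and the Timp2 interaction to 0.094 with limma-voom. When a library was left out, values that turned their sign ranged from -0.055 to 0.60 for Adamts14 with traction in Tem1lacZ/lacZ mice, from -0.14 to 0.23 for Timp3 and from -0.42 to 0.22 for Adamts5 between the genotypes with traction, and from -0.76 to 0.11 for Adamts4 between the sham groups. In the interaction they ranged from -0.29 to 0.35 for Timp2, from -0.32 to 0.34 for Adamts1 and from -0.17 to 0.41 for Adamts2. None of these was called.

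Over all genes, the 1725 calls with traction in Tem1WT/WT mice became 1011 with all genes of at least 1 count, 4047 with DESeq2, 735 with limma-voom, 0 with 6 libraries and 0 to 2861 without a library. The 1835 calls averaged over the genotypes became 1198 with all genes of at least 1 count, 3850 with DESeq2, 3850 with limma-voom and 0 to 3422 without a library. Upper quartile normalization moved the median of all genes to -0.12 and called 734 of 1673 genes as higher in Tem1WT/WT mice, against 1057 of 1725, and the 10 genes kept their direction.

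The labels do not say whether mice with the same replicate number were paired. Correlations of deviations from the group mean ran from -0.32 to 0.25 over the 18 same-numbered pairs, and 8 were over 0.1. These were not set beside pairs with different numbers, so they cannot decide whether the mice were paired. With the replicate block, 2 of the 10 genes and 7.91% of all genes were called averaged over the genotypes, where Adamts2 missed the threshold. In Tem1WT/WT mice Adamts4, Adamts14 and 7.78% of all genes were called under the block, while Timp1 (edgeR adjusted p = 0.0568) and Adamts9 (edgeR adjusted p = 0.0518) missed the threshold. In the other comparisons none of the 10 was called with or without the block.

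Each of the 10 genes had at least 202 counts in every library.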
